A study of Homo sapiens with 6 samples.

Results

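The miRNAs described here are markers of epithelial and luminal cells: the miR-200 family (miR-200a, miR-200b, miR-200c, miR-141 and miR-429), miR-205, miR-203a and miR-375. They were chosen by name (hsa-miR-200a-3p, hsa-miR-200b-3p, hsa-miR-200c-3p, hsa-miR-141-3p, hsa-miR-429, hsa-miR-205-5p, hsa-miR-203a and hsa-miR-375), and 7 of the 8 names had a row among the 503 mature miRNAs listed for each library; miR-141-3p was not analysed here. The libraries are small RNA libraries of exosomes from MDA-MB-231, an established human breast carcinoma line with a mesenchymal-like, triple-negative phenotype. The cells were stable clones expressing either a control hairpin (shNC, 3 libraries) or a hairpin against MCU (shMCU, 3 libraries), MCU being the protein that forms the calcium channel of the inner mitochondrial membrane. All were grown in DMEM with exosome-free bovine serum, and their vesicles were collected by polyethylene glycol enrichment and ultracentrifugation. The labels do not say how many clones were used or whether replicates were separate cultures, so the spread behind each p-value may be merely technical. MCU mRNA is not measured by such libraries, and the knockdown was not checked here.

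The miR-200 family keeps epithelial cells epithelial by repressing the transcription factors ZEB1 and ZEB2, which in turn silence both E-cadherin and the miR-200 genes. miR-205 acts on the same pair of repressors and is typical of basal cells of stratified and glandular epithelium. miR-203a promotes differentiation of keratinocytes by lowering the stem-cell factor p63, and miR-375 is best known from pancreatic islets and from luminal, oestrogen receptor-positive breast cancer. Lines that have lost epithelial character, such as MDA-MB-231, are known for low miR-200 levels.

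The mature sequences show which of these miRNAs can share targets and which can share reads. They were taken from RefSeq (GRCh38.p14), where all 8 names had an entry. They are written 5′ to 3′, with the seed, bases 2 to 8, in capitals. The tables name miR-203a and miR-375 without an arm, and the 3p strand, the usual guide strand of both, is shown for them.
miR-200c-3p: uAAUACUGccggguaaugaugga
miR-200b-3p: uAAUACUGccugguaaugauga
miR-429: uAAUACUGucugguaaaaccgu
miR-200a-3p: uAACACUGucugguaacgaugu
miR-141-3p: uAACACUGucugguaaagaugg
miR-205-5p: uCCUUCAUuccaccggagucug
miR-203a: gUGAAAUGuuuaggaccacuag
miR-375: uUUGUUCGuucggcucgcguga

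miR-200c-3p, miR-200b-3p and miR-429 had the same seed, and miR-200a-3p shared its seed with miR-141-3p. These 2 seeds differed at 1 base. Over 22 aligned bases miR-200b-3p and miR-200c-3p differed at 2, and so did miR-200a-3p and miR-141-3p, so their reads could be confused where mismatches were allowed. The other 3 each had a seed of their own. The 3p strand of miR-203a shared 21 bases with the reverse complement of miR-203b-5p, whose hairpin lies on the opposite strand. The sources do not state whether counting used strand, so reads of that pair cannot be told apart.

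Coordinates are those of GENCODE release 29 on GRCh38, while the reads were aligned to hg19; no coordinates were converted. The hairpin gene MIR200C occupies bases 6963699 to 6963766 of chromosome 12 (plus strand), inside an intron of the long non-coding RNA gene MIR200CHG, and MIR141 starts 330 bases beyond it. MIR200B (1167104 to 1167198), MIR200A (1167863 to 1167952) and MIR429 (1169005 to 1169087) lie together on the plus strand of chromosome 1, with no host gene annotated. MIR205, also on that strand and chromosome, spans 209432133 to 209432242 and overlaps an exon of MIR205HG. MIR203A spans 104117405 to 104117514 of chromosome 14 (plus strand) and MIR375 spans 219001645 to 219001708 of chromosome 2 (minus strand), neither with a host gene.

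Depth limited what could be seen. Library totals ran from 11563 counts in shNC replicate 2 to 47863 in shNC replicate 1, so that 1 read was worth 86.5 CPM (the count as a proportion of the library's total over all listed miRNAs, on the usual scale) in the first and 20.9 CPM in the second. As a limit for a count of 0, 3 counts were taken, the usual one-sided 95% bound, which is 62.7 to 259 CPM depending on the library. On the first principal component of the tested miRNAs shMCU replicate 3 stood apart (6.11, the others -2.73 to 1.11). Intervals on single libraries below are exact two-sided 95% Poisson intervals and cover counting error only. For a count of 0 these reach higher than the one-sided bound, to between 77.1 and 319 CPM.

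Epithelial miRNAs were a minor part of the exosomal miRNA in every library, and the amount varied more within groups than between them. Together the 7 miRNAs accounted for 0.0919%, 0.657% and 0.156% of reads in shNC replicates 1, 2 and 3, and for 0.186%, 0.143% and 0.397% in shMCU replicates 1, 2 and 3. The highest and the lowest of these shares both came from shNC libraries. The means were 0.302% ± 0.310 (SD, n = 3) and 0.242% ± 0.136, and the groups overlapped. By mean CPM over the 6 libraries, miR-203a ranked 55 of the 503 listed miRNAs, miR-205-5p 100, miR-200c-3p 126, miR-375 137, miR-200a-3p 169, miR-200b-3p 237 and miR-429 371. Differences between neighbours in this order were not tested, and the values varied widely between libraries.

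**Figure D1:**
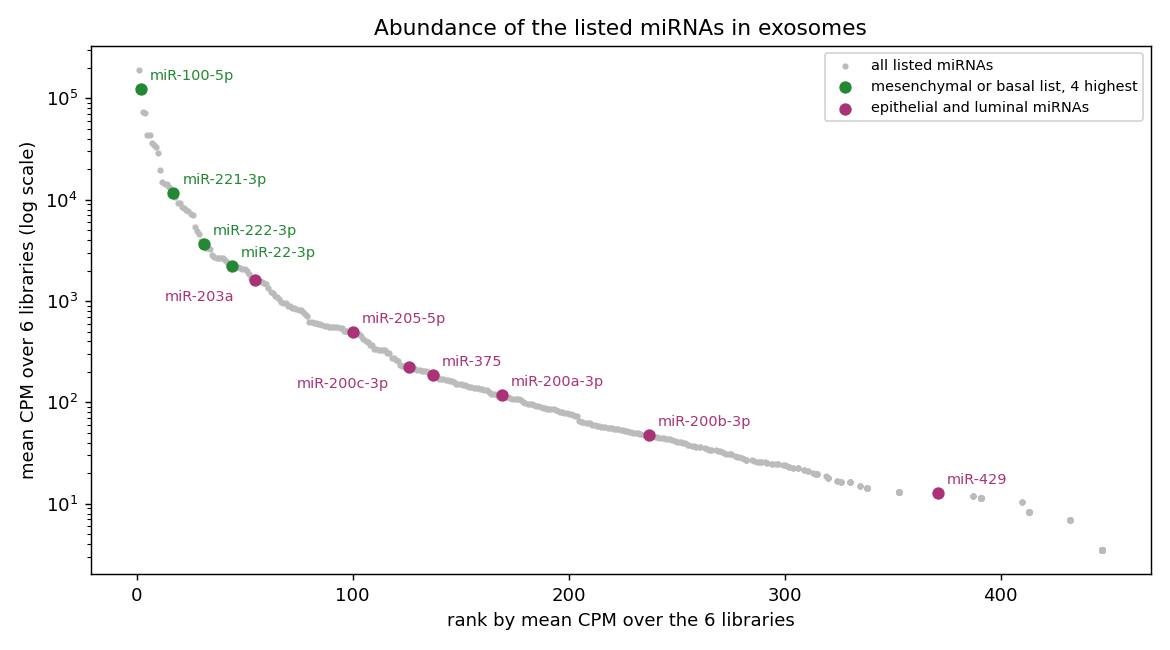
Mean CPM over the 6 libraries (log scale) of each listed miRNA against its rank, with tied miRNAs at 1 rank; the 7 epithelial and luminal miRNAs are purple and the 4 most abundant miRNAs of a mesenchymal and basal list are green. All 4 green points rank above miR-203a, the most abundant of the purple ones at rank 55.

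The label of a mesenchymal-like line could not be checked here, since no other line was among the libraries. A comparison list was chosen with earlier results of these data known. It holds 13 miRNAs known from such lines or from fibroblasts. Their joint share was 14.04% ± 3.35 (SD, n = 3) in the control and 15.5% ± 1.03 in the knockdown libraries, and 10 of the 13 were detected in all 6 libraries, against 2 of the 7 epithelial miRNAs and 30.2% of all listed miRNAs. miR-199a-3p and miR-199b-3p in this list have the same sequence and the same counts; taken once, 9 of 12 were detected in all libraries. Most of the share was miR-100-5p: without it and miR-199b-3p, alternatives chosen after seeing the data, the share was 2.47% ± 0.237 in control and 1.997% ± 0.559 in knockdown libraries. miR-155-5p, miR-214-3p and miR-145-5p had only 9, 3 and 2 reads in all. The highest were miR-100-5p, a let-7 cluster miRNA, at ranks 2 and 2 in shNC and shMCU, miR-221-3p at ranks 15 and 17, its cluster partner miR-222-3p at ranks 31 and 32, and miR-22-3p at ranks 42 and 48. miR-221-3p, typical of basal-like breast cancer, had 136, 17 and 128 times the count of miR-200c-3p in shNC replicates 1, 2 and 3. In shMCU replicates 1, 2 and 3 it had 97.5, 146 and 29 times that count. These ratios are imprecise and largely follow the count of miR-200c-3p, the divisor, which had only 1 to 8 reads per library. The lowest ratio in each group thus came from the library with the most miR-200c-3p.

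Of the miR-200 family, miR-141-3p was not analysed, so the 2 seed groups could not be compared in full. Among the family members with a row, miR-200c-3p supplied most of the reads, with 21. This miRNA, the product of the chromosome 12 cluster, had 5, 8 and 2 counts in shNC replicates 1, 2 and 3, which are 104, 692 and 101 CPM. In shMCU replicates 1, 2 and 3 it had 2, 1 and 3 counts, or 155, 68.1 and 233 CPM. It was present in every library and highest in shNC replicate 2, whose interval from 299 to 1363 CPM overlapped those of all other libraries except shNC replicate 1 (33.9 to 244 CPM).
Its relatives from chromosome 1 were close to the limit of detection. So was miR-200c-3p in the shMCU libraries, where it and miR-200a-3p had 6 reads each. miR-200a-3p was counted 2, 2 and 1 times in shNC replicates 1, 2 and 3, and 0, 2 and 4 times in the shMCU replicates. miR-200b-3p was counted 1, 0 and 1 times in the controls and 0, 2 and 1 times in the knockdown, in order of replicate. A single read of miR-429 was counted in all, in shMCU replicate 1. The minor strands listed outside the rule, miR-200a-5p and miR-141-5p, had 3 reads and 1 read over the 6 libraries. At these counts none of miR-200a-3p, miR-200b-3p and miR-429 could be ordered between libraries.

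miR-205-5p, the basal epithelial miRNA, was detected in 5 of the 6 libraries. It had 10, 14 and 11 counts in shNC replicates 1, 2 and 3, or 209, 1211 and 553 CPM. In shMCU replicates 1, 2 and 3 it had 5, 0 and 8 counts, or 387 CPM, not detected with a one-sided upper limit of 204 CPM (251 CPM two-sided), and 622 CPM. It was thus highest in shNC replicate 2 and absent from the reads of shMCU replicate 2, with the other 4 libraries in between and overlapping between groups.

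miR-203a, the keratinocyte differentiation miRNA, was the most abundant of the 7 by mean CPM and varied widely between libraries. Its counts of 25, 52 and 16 in shNC replicates 1, 2 and 3 gave 522, 4497 and 805 CPM. Its counts of 16, 1 and 34 in shMCU replicates 1, 2 and 3 gave 1237, 68.1 and 2644 CPM. The highest library, shNC replicate 2, exceeded the lowest, shMCU replicate 2, by 66.1-fold, and the groups overlapped. Counting error did not cover it, with intervals from 3359 to 5897 CPM and from 1.72 to 379 CPM for these 2 libraries. Among the 79 miRNAs that passed edgeR's filter on low counts, this was the widest range; the next was that of the muscle miRNA miR-1, at 8.89-fold, and the median was 2.38-fold. This ranking was made after the values had been seen.

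miR-375, the islet and luminal miRNA, came almost entirely from 1 library. It was read 1, 0 and 0 times in shNC replicates 1, 2 and 3, and 0, 15 and 1 times in the shMCU replicates. In shMCU replicate 2 this was 1021 CPM (571 to 1684), and in the other 5 libraries at most 77.8 CPM. That library thus held 91.2% of the miRNA's CPM summed over the 6 libraries. Of 197 miRNAs with at least 10 counts in all, no other was as concentrated in a single library; the next was miR-484 at 62.1%, and the median was 27.7%. This ranking, too, was made after the values had been seen. miR-7-5p, which is also abundant in islets, was not concentrated in 1 library in this way. Its share of counts ran from 0.978% to 1.35% in shNC and from 1.07% to 1.47% in shMCU libraries, and was highest in shMCU replicate 2. The source of the miR-375 reads was not tested.

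**Figure D2:**
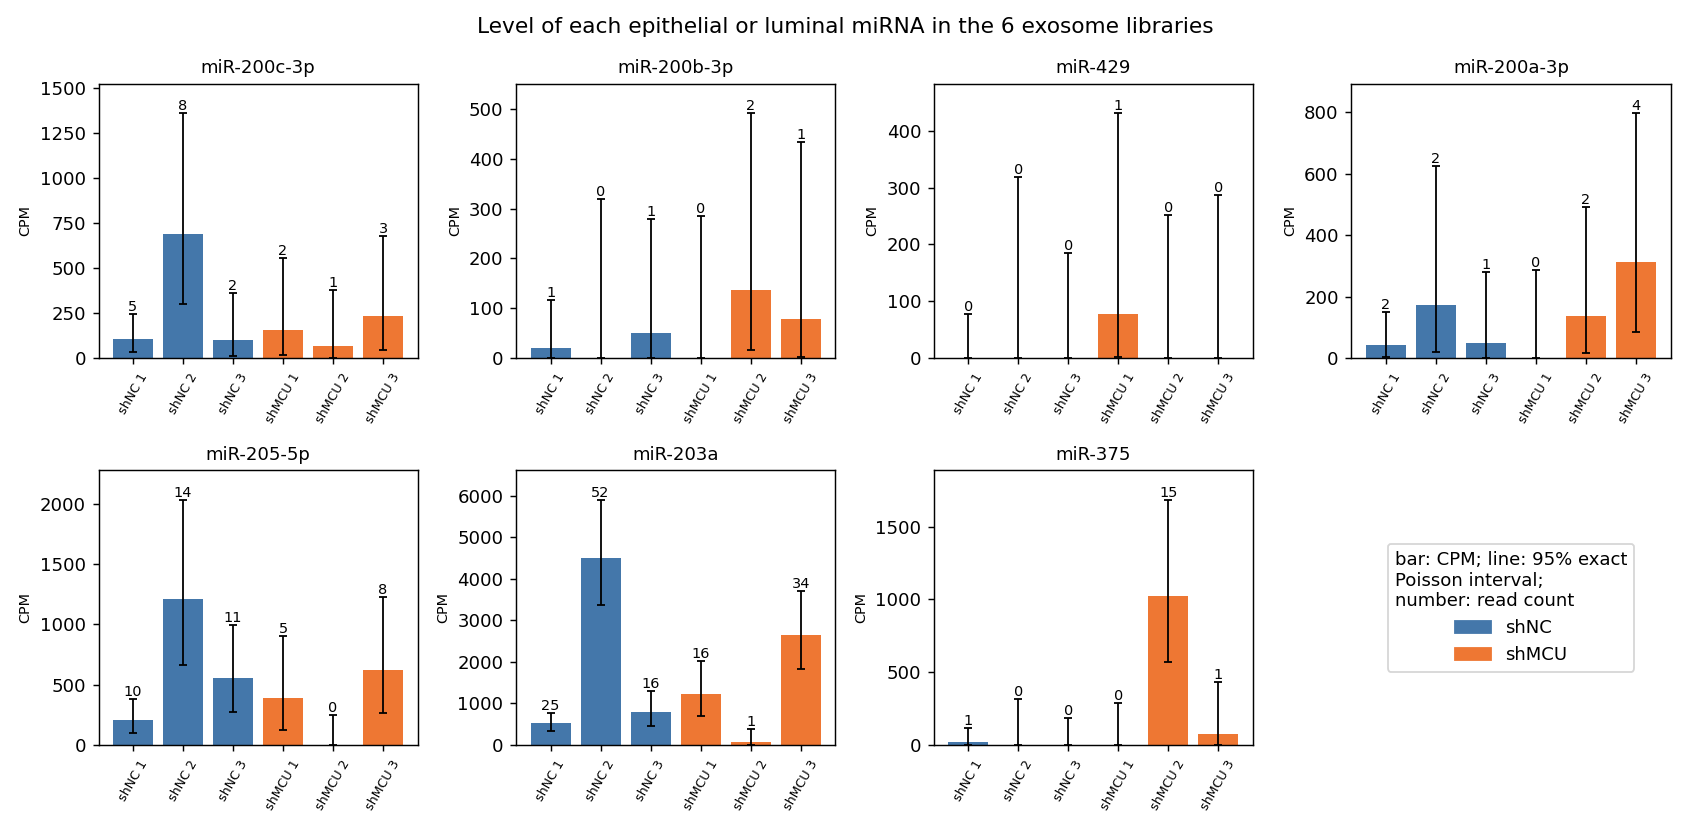
CPM of each of the 7 miRNAs in each library, with read counts above the bars and 95% exact Poisson intervals (counting error only) as lines; each panel has its own scale from 0. miR-203a, miR-205-5p and miR-200c-3p are highest in shNC replicate 2, while miR-375 reaches 1021 CPM in shMCU replicate 2 alone.

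miR-203a, miR-205-5p and miR-200c-3p, the members with at least 20 counts, come from 3 different chromosomes and were distributed alike over the libraries. By point values, they were each highest in shNC replicate 2, second in shMCU replicate 3 and lowest in shMCU replicate 2. For miR-200c-3p the intervals in shMCU replicates 3 and 2 overlapped (48.1 to 682 and 1.72 to 379 CPM). Those of miR-205-5p in shMCU replicate 3 and shNC replicate 3 overlapped too (269 to 1226 and 276 to 990 CPM). The order of these libraries is thus uncertain. The summed CPM of the 3 miRNAs was 836, 6400 and 1458 in shNC replicates 1, 2 and 3, and 1779, 136 and 3499 in the shMCU replicates. In proportion, miR-203a made up 62.5%, 70.3% and 55.2% of the 3 in the shNC replicates, and 69.6%, 50% and 75.6% in the shMCU replicates. The exact (Clopper-Pearson) 95% intervals of these proportions all overlapped. In the 5 libraries other than shMCU replicate 2, miR-205-5p made up 17.8% to 37.9% and miR-200c-3p 6.67% to 12.5%. In shMCU replicate 2, with 2 reads of the 3 in all, they were 0% and 50%.

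Likeness of profiles was measured as the overlap of the CPM of 2 miRNAs over the 6 libraries, each scaled to a sum of 1, so that 1 is an identical distribution. It was 0.88 between miR-200c-3p and miR-203a, 0.88 between miR-205-5p and miR-203a and 0.84 between miR-200c-3p and miR-205-5p. With any single library left out, these overlaps stayed at or above 0.85, 0.82 and 0.83. Among the 79 miRNAs that passed the filter, miR-203a was the most alike to both miR-200c-3p and miR-205-5p, where the median overlap was 0.62 and 0.68. miR-1 and then miR-143-3p, a smooth muscle and fibroblast miRNA, followed for both. For miR-203a itself the closest among the others that passed the filter were miR-143-3p at 0.84, miR-1 at 0.83 and miR-7704 at 0.76. The median there was 0.58, and miR-200c-3p and miR-205-5p had not passed the filter. These points share libraries and their totals, so the overlaps are a description. miR-200a-3p, with 11 reads in all, was less alike to them, at 0.59 with miR-200c-3p, 0.58 with miR-205-5p and 0.64 with miR-203a. miR-375 overlapped least, at 0.095 with miR-203a and 0.088 with miR-205-5p.

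**Figure D3:**
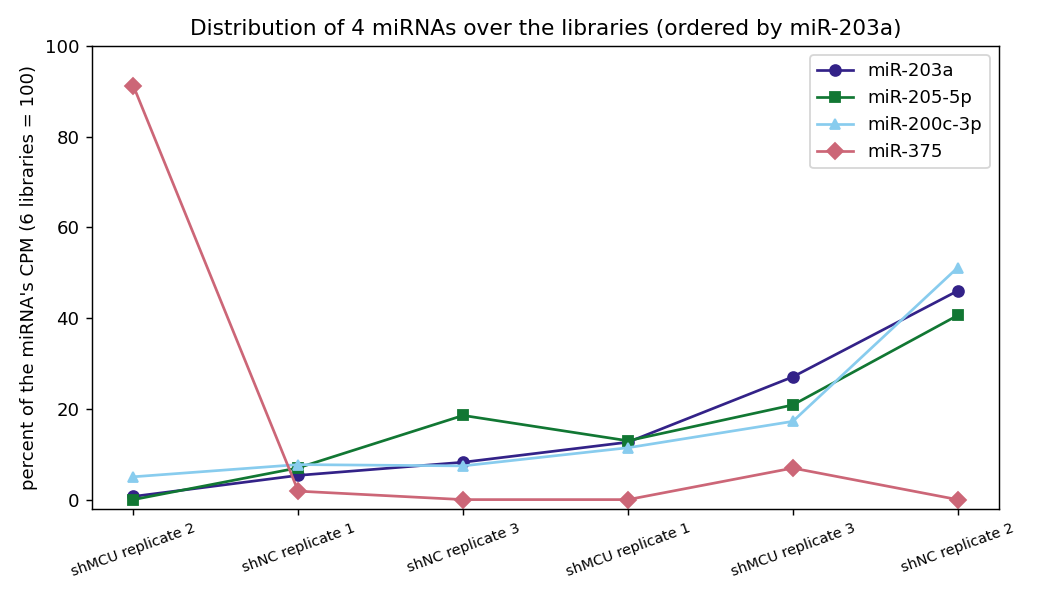
Percent of each miRNA's CPM, summed over the 6 libraries, that each library held, for 4 miRNAs; libraries are ordered by miR-203a and lines only join the points of 1 miRNA. miR-203a, miR-205-5p and miR-200c-3p rise together to 46.0%, 40.6% and 51.1% in shNC replicate 2, while miR-375 has 91.2% in shMCU replicate 2.

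Other miRNA groups that exosome preparations can carry were listed beside these. The blood cell and liver list, led by miR-122-5p, the dominant miRNA of hepatocytes, and by the erythroid miR-486-5p, had 7 of 8 names listed. Its share was 2.39%, 1.31% and 1.85% in shNC replicates 1, 2 and 3, and 2.46%, 3.77% and 10.5% in the shMCU replicates. shNC replicate 2, with the most miR-203a, thus had the lowest share of that list, and shMCU replicate 3, with the next most, the highest. Most of the share was miR-122-5p, at 12281 and 103663 CPM in these libraries, and single members of the list differed. Of the list's blood cell members, the erythroid miR-486-5p and miR-451a had 48 and 23 reads over the 6 libraries and were detected in each. miR-142-5p had 9 reads in 5 libraries. The leukocyte miRNAs miR-223-3p, miR-150-5p and miR-142-3p had 1, 3 and 4 reads. shNC replicate 2 held 76.9% and 45.2% of the summed CPM of miR-142-3p and miR-142-5p, from 3 reads each. It held 7.24% and 13.6% of that of miR-486-5p and miR-451a, and 0 reads of miR-223-3p and miR-150-5p. miR-1 and miR-143-3p had 1816 and 3632 CPM in shNC replicate 2 and 204 and 1225 CPM in shMCU replicate 2. That was the lowest library for miR-1, but miR-143-3p was lowest in shNC replicate 1, at 522 CPM. The part of other cell types or of the medium in the epithelial counts was not tested.

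Whether MCU knockdown altered these miRNAs was asked with edgeR's quasi-likelihood test across all miRNAs. After the filter on low counts (filterByExpr, minimum count 10), 79 miRNAs were tested and 0 (0%) passed an adjusted p of 0.05; 3 (3.8%) had an unadjusted p under 0.05, and DESeq2 called 1, miR-122-5p. Only 1 of the 7 epithelial and luminal miRNAs, miR-203a, passed the filter. Its mean was 1941 ± 2218 CPM (SD, n = 3) in control and 1317 ± 1290 CPM in knockdown libraries. Its log2 fold change was -0.20 ± 1.15 (SE), with a 95% interval from -2.92 to 2.52 and an adjusted p of 0.94 by edgeR. The interval reaches from a fold of 0.13 to one of 5.74. Without shNC replicate 2 the log2 fold change was 1.23 and without shMCU replicate 2 it was 0.43.

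The other 6 could be fitted only without the filter, over all 503 listed miRNAs. There 1 miRNA (0.199%) passed an adjusted p of 0.05 and 10 (1.99%) had an unadjusted p under 0.05. The 1 called was miR-375, higher in shMCU with 366 ± 568 CPM against 6.96 ± 12.1 CPM (SD, n = 3) and a fitted log2 fold change of 4.39 ± 1.02 (SE, adjusted p = 0.0095 by edgeR). The call rested on shMCU replicate 2: without that library the log2 fold change was 1.25, with an adjusted p of 0.80 by edgeR, and shMCU replicate 1 had no read of it. The call, though not the size of the fold, was also lost without any single shNC library (log2 fold change 5.59, 4.31 and 4.20 and adjusted p = 0.36, 0.085 and 0.088 by edgeR without replicates 1, 2 and 3) and with DESeq2 (log2 fold change 4.78, adjusted p = 0.999). With the replicate number as a block, the log2 fold change was 3.58 and the adjusted p 0.45 by edgeR. Over 10 alternatives it was called in 4, with adjusted p from 0.00016 to 0.999. Summed over each group, 1 of 79310 counts in shNC and 16 of 40481 in shMCU gave a ratio of 31.3 with an exact 95% interval from 4.87 to 1315, which leaves out the spread between libraries.

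None of the other 5 miRNAs with a fold passed in that fit. For miR-205-5p the means were 658 ± 509 CPM in control and 336 ± 314 CPM in knockdown libraries (SD, n = 3), a log2 fold change of -0.70 with a 95% interval from -1.97 to 0.56 (adjusted p = 0.68 by edgeR). It was -0.07 without shNC replicate 2, -0.19 without shMCU replicate 2 and -1.54 without shMCU replicate 3. miR-200c-3p had 299 ± 340 CPM and 152 ± 82.6 CPM, a log2 fold change of -0.50 from -2.08 to 1.08 (adjusted p = 0.79 by edgeR). It was 0.52 without shNC replicate 2. miR-200a-3p and miR-200b-3p had fitted log2 fold changes of 1.11 (-0.91 to 3.14) and 1.33 (-1.53 to 4.20), each with an adjusted p of 0.68 by edgeR, from 11 and 5 reads in all. miR-203a had -0.23 (-2.96 to 2.51). For miR-429, with 1 read, no fold is given. The median fitted log2 fold change of the 6 miRNAs other than miR-429 was 0.44, against -0.25 over all 503. With miR-429 it was 1.11. The 503 keep single-read miRNAs such as miR-429 and miR-141-5p, so the sets are unlike.

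By CPM, the groups overlapped for all 7. Over all listed miRNAs all knockdown libraries exceeded all controls for 0.994%, and fell short of all controls for 5.37%. The number of the 7 with at least 1 read was 6, 4 and 5 in shNC replicates 1, 2 and 3, and 4, 5 and 6 in the shMCU replicates. Thinned to 11563 reads in each library, the expectation was 3.59, 4 and 3.99 in the controls, and 3.88, 4.48 and 5.80 in the knockdown. The mean thus differed by 0 as counted and by 0.86 at equal depth, where the groups still overlapped.

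**Figure D4:**
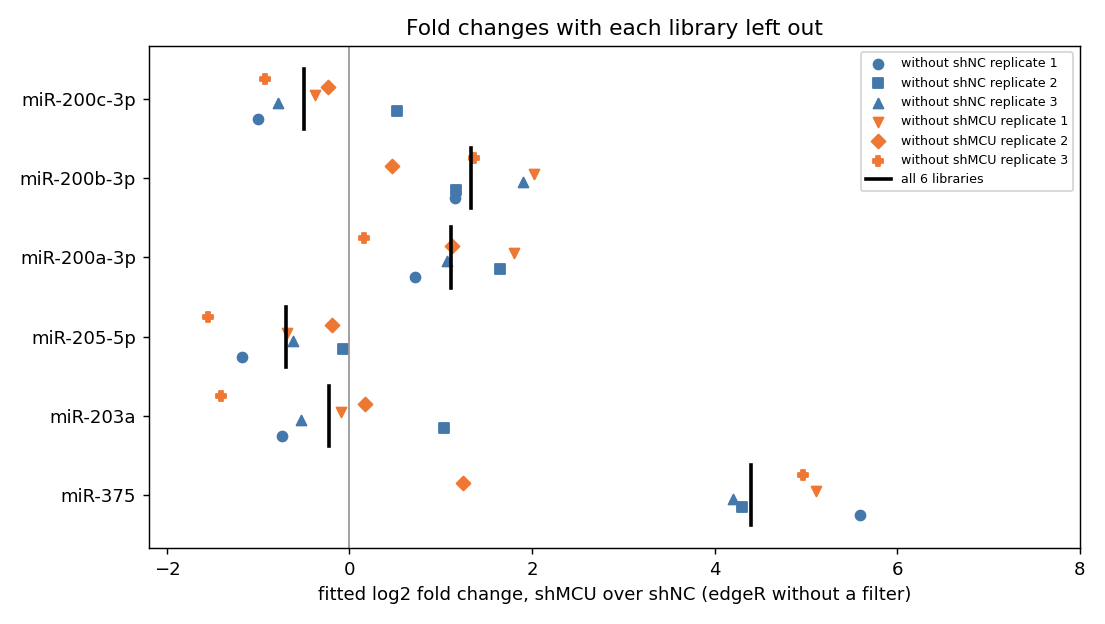
Fitted log2 fold change (shMCU over shNC, edgeR without a filter) of 6 miRNAs with all libraries (black bars) and with each library left out in turn (symbols, blue for shNC and orange for shMCU). The sign turns for miR-200c-3p and miR-203a without shNC replicate 2, at 0.52 and 1.03, and miR-375 drops to 1.25 without shMCU replicate 2.

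A list of other miRNAs linked to epithelial or luminal identity was set beside these, without a test between the lists. It had 10 of 11 names listed with a share of 0.575%, 0.623% and 0.593% in shNC replicates 1, 2 and 3, and of 0.565%, 0.538% and 0.855% in the shMCU replicates. Of its 3 tested miRNAs, 0 passed; their median log2 fold change was 0.25, against -0.02 over the 79 tested. Only 4 of the 10 were detected in all 6 libraries, and scarce members ranged widely: miR-194-5p ran from 0 to 259 CPM, miR-96-5p from 0 to 232 CPM and miR-215-5p from 0 to 204 CPM. Its most abundant members were miR-183-5p and miR-182-5p, which come from 1 cluster. The mean of miR-183-5p was 1858 ± 209 CPM in control and 2472 ± 766 CPM in knockdown libraries (SD, n = 3), and miR-182-5p 2187 ± 357 and 2023 ± 876 CPM. Their highest library exceeded their lowest by 2.01-fold and 2.06-fold. By mean CPM they ranked 46 and 48, near miR-203a at rank 55, whose range was 66.1-fold. Of the 7 tested miRNAs of the mesenchymal list, 3 were fitted higher, 4 lower and 0 passed (median -0.06).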

How the data were processed

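The deposited tables give each library's read counts for mature miRNAs as whole numbers without normalization; the unit was read from the values. Per the submitters' processing notes, Bowtie and hg19 were used. Of the counting tool, the miRNA annotation release and the handling of multiply matching reads nothing is stated: not given in the sources used here. miR-199a-3p and miR-199b-3p, identical in RefSeq, had equal counts in all 6 libraries. Groups came from sample titles. The test was edgeR's quasi-likelihood F test (version 4.0.16, R 4.3.3), robust, with TMM and group as sole term, Benjamini-Hochberg adjustment and a threshold of 0.05. It was run with filterByExpr and, since most members were low, without a filter. SE is the absolute log2 fold change over the square root of F. DESeq2 1.42.0 and the other alternatives are given in the closing section. CPM and shares use each library's total and are not TMM-scaled. Intervals were computed with scipy 1.17.1. Without molecular identifiers, PCR copies count as reads.

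Members and lists were chosen with earlier results of these data known. Named beside the members were the 2 most abundant miRNAs of each list (4 of the mesenchymal list) and, for members with at least 20 counts, the 3 tested miRNAs with the most similar profile.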

Additional observations from a re-analysis of the deposited data

How the results depend on the processing

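Counts this low make most values depend on single libraries. The number of miRNAs past an adjusted p of 0.05 in the filtered edgeR test, 0, was 1 with DESeq2 (miR-122-5p) and 1 without a filter (miR-375), and stayed 0 under the replicate block, under scaling by DESeq2 size factors or library totals, and with each library left out. In the fit without a filter, the 1 call among the 7 (miR-375) was also made with DESeq2 size factors and library totals alone. It became 0 with DESeq2 and 0 with the replicate block, and was 0 to 1 with a library left out; for the first pair the cause was not tested. Same-numbered libraries deviated from their group means with correlations of 0.16, -0.35 and 0.08, so the numbers are not taken as pairs. The block turned miR-203a in the filtered fit from -0.20 to 0.098 and, apart from miR-375, changed no call. Leaving out libraries moved the log2 fold change of miR-203a from -1.40 to 1.23 in the filtered fit and from -1.40 to 1.03 without a filter, and that of miR-200c-3p from -1.002 to 0.52. Of 71 fold changes under alternatives, 59 kept sign and side of the threshold. The joint share differed by -0.060 percentage points (shMCU minus shNC), by -0.16 to 0.12 with a library left out, the highest without shNC replicate 2, and by 0.0025 without miR-203a. The mean number detected differed by 0, by 0.86 at equal depth, by -0.33 with at least 3 counts and by -0.50 to 0.50 with a library left out, an alternative chosen, like the overlaps with a library left out, after seeing the data.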
